A study of Mus musculus with 6 samples.

Results

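The cytosolic ribosomal protein genes were taken as the rows of the deposited gene table whose symbol begins with Rps or Rpl followed by a number, with at most an ending a, x, l or l1, plus Rpsa, Rplp0, Rplp1 and Rplp2. This gave 81 of the 13595 genes of the table, and 80 of the 81 passed the filter on low values (a normalized read count of at least 1 in at least 3 libraries). Rpl39l was the member under the filter. The RNA came from CD31+ cells of the liver of C57BL6/J mice aged 4 weeks, and CD31 is a surface protein used to select endothelial cells. The cells were grown in culture and then given 100 µM indoxyl sulfate, a tryptophan metabolite that activates the aryl hydrocarbon receptor, with hypoxia and nutrient deprivation for 6 hours. Both groups of 3 libraries, 1 labelled male and 1 labelled female, received all of these, so the comparison is of the sex label under treatment. Libraries of DMSO control cells were not analysed here. Replicates carry the numbers 4, 5 and 6 in each group, and the labels do not say whether they were separate mice, pools or cultures, so the p-values measure the spread between these libraries only.

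Cytosolic ribosomes are built from a small (40S) and a large (60S) subunit, and nearly every ribosomal protein is present once in each ribosome. The mRNAs of these proteins begin with a C followed by a run of pyrimidines, the 5′ terminal oligopyrimidine (TOP) motif. Their translation falls when mTOR, the kinase that senses nutrients and oxygen, is inactive, and La-related protein Larp1 then holds these mRNAs in a stored state. In endothelial cells, as in other cells, the genes are among the most highly expressed, and a few have a relative with the ending l or l1 in its symbol. The proteins of some of these, such as Rps27l and Rpl22l1, can take the place of their partner in the ribosome.

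The sequence around the annotated transcription start, from the RefSeq promoter table (GRCm38.p6), is shown for 9 of the 12 members with the 6 highest and the 6 lowest fold changes, because the start holds the TOP motif. Each line gives the 15 bases before the start and the 15 from it on, 5′ to 3′ on the strand of the gene. Capitals mark a run of at least 8 C or T that reaches within 5 bases of the start. The first 6 sequences belong to members with the highest fold changes, in falling order, and the last 4 to those with the lowest.
Rps27l, first start: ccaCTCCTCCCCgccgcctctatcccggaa
Rps27l, second start: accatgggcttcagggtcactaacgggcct
Rps2: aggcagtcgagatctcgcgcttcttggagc
Rpl14: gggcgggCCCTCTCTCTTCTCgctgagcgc
Rpl35: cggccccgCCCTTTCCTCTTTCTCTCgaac
Rps12: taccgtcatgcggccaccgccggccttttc
Rpl22l1: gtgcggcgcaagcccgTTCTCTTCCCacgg
Rpl9: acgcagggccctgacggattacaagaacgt
Rpl39: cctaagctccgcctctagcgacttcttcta
Rps27: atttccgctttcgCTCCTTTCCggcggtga
The windows of Rps27l lie on the plus strand at chr9:66946071-66946100 and chr9:66946398-66946427. Those of Rps2 (chr17:24720048-24720077), Rpl14 (chr9:120571502-120571531) and Rpl22l1 (chr3:28805493-28805522) are on the plus strand too. The windows of Rpl35 (chr2:39005117-39005146), Rps12 (chr10:23787195-23787224), Rpl9 (chr5:65391417-65391446), Rpl39 (chrX:37085208-37085237) and Rps27 (chr3:90213634-90213663) are on the minus strand.

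Of the 81 members, 60 had an entry in the promoter table, and 24 of the 60 (40%) held such a pyrimidine run near an annotated start, against 2962 of 27025 genes in the table (11.0%). The motif CCGGAAG, the core that ETS-family transcription factors such as Gabpa bind, was found on either strand of the 300-base promoter for 25 of the 60 members (41.7%) and for 9.93% of all genes. A missing run says only that none reaches within 5 bases of the annotated start. The window of Rpl39 holds an unmarked run farther from it.

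Summed over all genes listed, each library held between 22303270 and 31189363 reads. The library labelled male 4 stood apart: its read counts differed from the other 2 libraries labelled male by a chi-square of 43.6 and 45.4 per gene, against 5.98 between those 2 and 4.35 to 9.59 among the libraries labelled female. Xist was at 234 to 324 normalized read counts in the libraries labelled female and at 0.124 to 0.458 in those labelled male. The Y-linked gene Ddx3y was at 48.5 to 57.8 in the libraries labelled female and 47.2 to 76.3 in those labelled male, which goes against the label of all 3 libraries labelled female. Endothelial markers also differed between the groups, with 11 of 13 tested lower and 1 higher in the libraries labelled female and a summed level of 2899 to 2974 against 1224 to 1280. Pecam1, which encodes CD31, was at 391 to 423 in the libraries labelled male and at 73.5 to 74.5 in those labelled female. Macrophage markers summed to 12.0 to 14.7 in the male group and 15.2 to 18.1 in the female group. All 3 tested were called, 2 higher and 1 lower, with C1qa and C1qb at 0 in at least 5 of the 6 libraries each and Ptprc at 0 in the male group and 0.142 to 0.332 in the female group. Hepatocyte markers summed to 1.62 to 3.09 and 2.04 to 8.26, and the 1 tested, Apob, was higher. For comparison, 69.3% of all genes were called, 34.6% each way, by the test described further on. All 12 tested fibroblast and mural markers were called, 4 higher and 8 lower, with a summed level of 2887 to 3719 in the male group and 3501 to 4203 in the female group. All 8 tested cholangiocyte and mesothelial markers were called too, 5 higher and 3 lower, with sums of 823 to 996 and 590 to 601. The part of the cell makeup and of the sex label in the values of the ribosomal protein genes was not tested, and fewer cells of a type and less RNA per cell cannot be told apart in such bulk libraries.

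More ribosomal protein mRNAs were lower than higher in the libraries labelled female, most of them by a small amount. Differences are given as log2 fold changes of female minus male from limma, on log2(normalized read count + 1), and a gene is called where the Benjamini-Hochberg adjusted p over all 12568 genes tested is below 0.05. By this rule 36 of the 80 tested members were lower and 5 were higher, 41 (51.25%) in all. Over all genes, 69.3% were called, 34.6% higher and 34.6% lower. The share of members called lay below that of all genes, and 36 of the 41 calls (87.8%) were lower. The median log2 fold change of the 80 was -0.15 with quartiles of -0.23 and -0.06, beside a median of 0.01 over all genes tested.

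The sizes were small. The median absolute log2 fold change was 0.171 among members and 0.457 among all genes. Of the 80 tested members, 61 (76.25%) lay within 0.25 of 0, against 30.4% of all genes. Called members at least 0.5 from 0 numbered 4 of 80, where the background was 46.1%: Rps4l and Rps27l above and Rpl22l1 and Rps14 below. Without the l and l1 forms the SD over 76 members fell from 0.22 to 0.15. The groups did not overlap for 44 members with the libraries labelled female lower, for 7 with them higher, and overlapped for 29. Over all genes the groups were apart with female lower for 37% and with female higher for 37.1%, 74.1% in all.

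**Figure D1:**
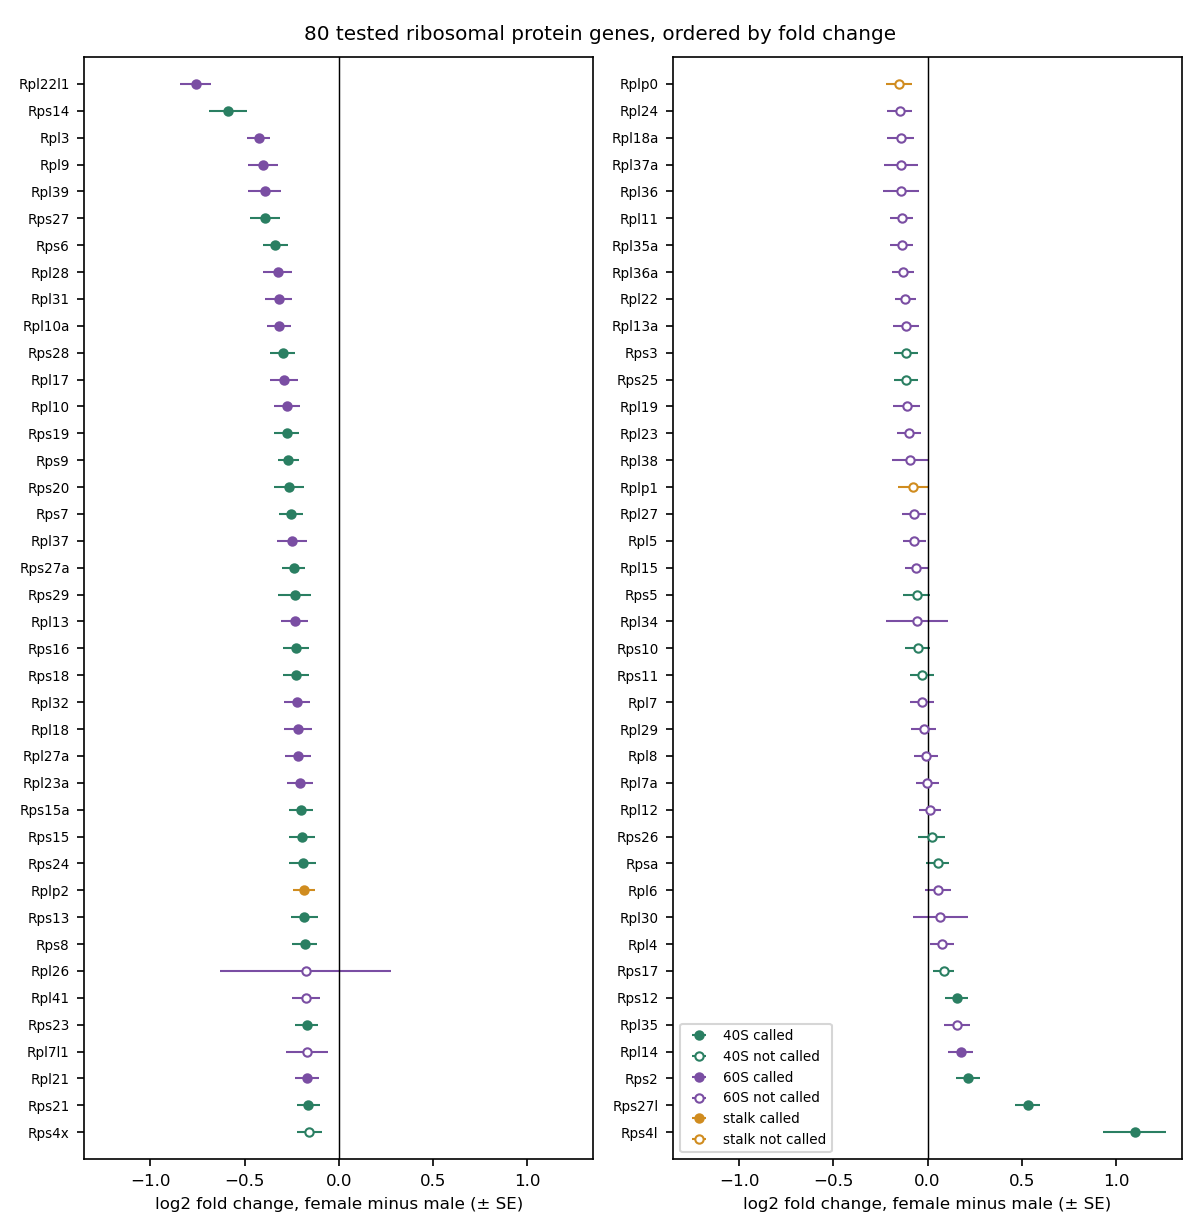
The log2 fold change (female minus male) of each of the 80 tested ribosomal protein genes from limma, with its SE as a bar, ordered from Rpl22l1 (-0.76) to Rps4l (1.10) over both panels. Filled points passed an adjusted p of 0.05 (41 genes), open points did not (39 genes), and colour gives the subunit; most points lie between -0.25 and 0.25.

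The split of the calls into higher and lower depended on how the libraries were scaled. On CPM values, each library's reads divided by its total, 15 members were called lower and 8 higher, where 69.5% of all genes were called (30.8% lower and 38.7% higher). On quantile-normalized values 13 were lower and 6 higher, against 70.9% of all genes (31.7% lower and 39.2% higher). After a correction for GC content and length 20 were lower and 13 higher, against 70.6% of all genes (31.9% lower and 38.7% higher). The share of lower calls was then 65.2%, 68.4% and 60.6%, against 87.8% on the deposited scale. The median of the members minus the median of all genes was between -0.24 and -0.14 in every setting run. The members' own median was -0.08 on CPM, -0.09 on quantile-normalized values and -0.07 after the GC and length correction, against -0.15 on the deposited scale. Leaving out any 1 of the other 5 libraries gave 21 to 26 calls, 18 to 24 of them lower, with 60.3% to 63.4% of all genes called. Without the library labelled male 4, 59 members were lower and 5 higher, where 74.8% of all genes were called (35.9% lower and 38.9% higher), and the members' median was -0.21. TMM factors computed without the ribosomal protein genes gave 44 lower and 3 higher, with 69.1% of all genes called (36% lower and 33.2% higher). On the recovered reads, edgeR gave 37 lower and 3 higher with 68% of all genes called (34.5% lower and 33.5% higher), and DESeq2 gave 39 lower and 4 higher with 65.3% (33% lower and 32.3% higher). In the authors' deposited table, 68 of 81 members had a fold below 0, but 1 passed a false discovery rate of 0.05 (Rpl22l1), where 25.8% of all its genes did.

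Summed over the 81 members, normalized read counts were 48308, 52936 and 52730 in the libraries labelled male 4, 5 and 6, and 45983, 47656 and 47178 in those labelled female. The groups did not overlap on this scale, the mean of the female group (46939 ± 862, SD, n = 3) being 91.5% of that of the male group (51325 ± 2614). As a percent of all normalized reads the sums were 4.19%, 4.87% and 4.79% in the male group and 4.37%, 4.49% and 4.45% in the female group. On that scale the groups overlapped, male 4 being the lowest of the 6 and the other 2 libraries labelled male the highest. That library was the lowest of its group for 78 of the 80 tested members (97.5%), against 45.0% of all tested genes. Without it the log2 fold change was 0.91 for Rps4l, 0.49 for Rps27l, -0.80 for Rpl22l1 and -0.68 for Rps14, all still called.

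**Figure D2:**
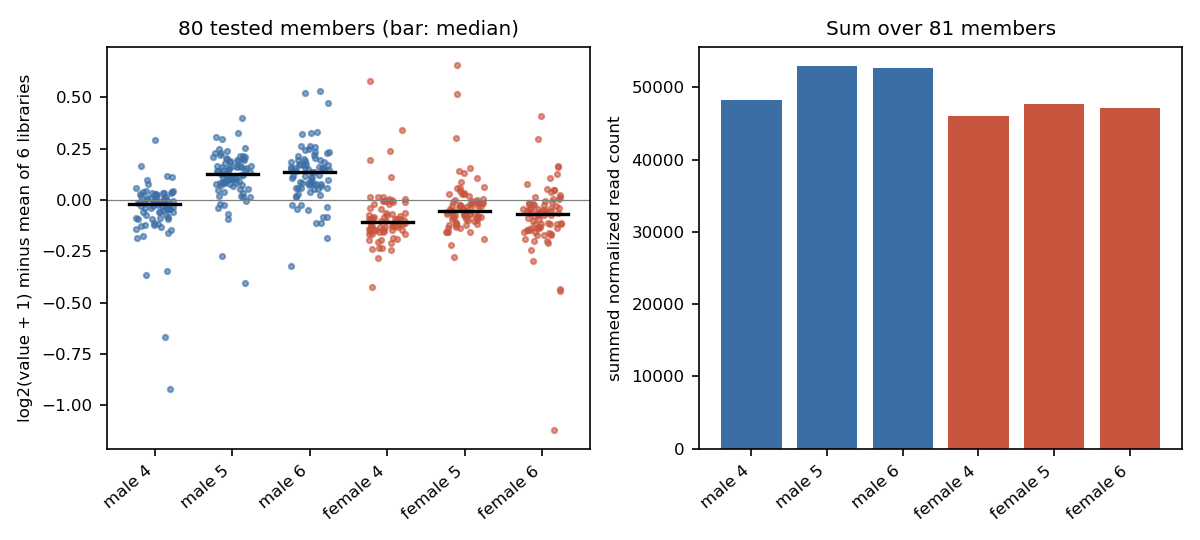
Left, the deviation of each of the 80 tested members in each library from its own mean over the 6 libraries, on the log2(normalized read count + 1) scale, with the library median as a bar (-0.02, 0.13 and 0.14 in male 4, 5 and 6, and -0.11, -0.05 and -0.07 in female 4, 5 and 6). Right, the normalized read counts summed over the 81 members, which are highest in male 5 and male 6 (52936 and 52730) and lowest in female 4 (45983).

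Both subunits held more lower than higher calls, where all genes had 34.6% each way. Members were assigned to a subunit by symbol, so that the pseudogene Rps4l counts among the higher 40S calls. Of the 32 tested members of the 40S group, 19 were lower and 4 higher (71.9% called, near the 69.3% of all genes) with a median of -0.18. Of the 45 tested in the 60S group outside the stalk, 16 were lower and 1 higher (37.8% called) with a median of -0.14. The ratio of the 40S sum to the 60S sum, the stalk included, was 0.622 ± 0.0046 in the male group and 0.626 ± 0.0005 in the female group (SD, n = 3). That the share of calls differs between subunits was not tested.

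In the 40S subunit, Rps14, a protein of the platform that faces the mRNA, had the lowest fold change. Its normalized read count was 446, 507 and 574 in the libraries labelled male and 351, 355 and 306 in those labelled female. No female value reached the lowest male one, and the difference in limma was -0.59 on the log2 scale (SE 0.101, adjusted p = 0.000924). It was called in all 19 alternative fits, between -0.68 and -0.43. Rps27, a zinc-finger protein at the surface of the subunit, stood at 244, 280 and 298 against 207, 217 and 201, again without overlap, and limma put the difference at -0.39 on the log2 scale (SE 0.0803, adjusted p = 0.0025). Of the 50-mers in its transcript 98.6% also occur in other genes, so reads can be assigned to copies, and its level is uncertain to that extent. Rps6, the substrate of the S6 kinases that mTOR switches on, fell from 1397 ± 44.9 to 1106 ± 44.3 (SD, n = 3; log2 fold change -0.34, limma adjusted p = 0.00183).

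Some 40S genes went the other way. Rps2, which lines the mRNA entry channel, read 1420, 1475 and 1483 in the male group and 1696, 1722 and 1658 in the female group. All 3 female values were above the male ones, by 0.21 on the log2 scale (SE 0.0630, limma adjusted p = 0.0152), and it was called in 16 of the 19 alternatives. The call was lost without female 4 or female 5 (limma adjusted p of 0.0510 and 0.0762) and with the replicate number as a block (limma adjusted p = 0.0545). Rps12, a protein of the beak of the subunit, read 623, 657 and 638 against 682, 717 and 738. Its groups were apart too, at 0.16 (SE 0.0602, limma adjusted p = 0.0469), but 8 of 19 alternatives called it. Leaving out any library but male 4 ended the call, at limma adjusted p of up to 0.147, as did TMM factors computed without the ribosomal protein genes (0.13, limma adjusted p = 0.0842). Rpsa, the laminin receptor precursor that is also a 40S protein, did not pass the test (log2 fold change 0.05, limma adjusted p = 0.469), with 1485 to 1568 in the male group and 1561 to 1588 in the female group. With the GC and length correction it was called higher, at 0.20 (limma adjusted p = 0.0136).

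In the 60S subunit, Rpl3, a core protein near the peptidyl transferase centre, read 1246, 1289 and 1330 in the male group and 941, 973 and 961 in the female group. The gap between the groups was larger than the range within either, and the difference in limma was -0.43 on the log2 scale (SE 0.0610, adjusted p = 0.000325). Rpl9 read 535, 612 and 657 against 440, 467 and 453, and limma put the difference at -0.40 on the log2 scale (SE 0.0816, adjusted p = 0.00232). Rpl39, a small protein of the tunnel through which the new chain leaves, read 232, 275 and 289 against 189, 210 and 205, and limma put the difference at -0.39 on the log2 scale (SE 0.0885, adjusted p = 0.00405). Neither gene had a female value above the lowest male one. Rpl14 was the single 60S member called higher, at 533, 578 and 541 against 581, 631 and 655 (0.18 on the log2 scale, SE 0.0683, limma adjusted p = 0.0475). Its female values lay above every male one, but the sum with its processed copy Rpl14-ps1 (49.3% of its 50-mers shared) overlapped, at 579, 615 and 558 against 601, 649 and 676. Of the fits run, 9 of 19 alternatives called it. The call was lost without male 6, female 5 or female 6 (limma adjusted p of 0.127, 0.147 and 0.159), and also with TMM factors computed without the ribosomal protein genes (0.15, limma adjusted p = 0.0802) and in edgeR and DESeq2 (adjusted p of 0.0616 and 0.0597). Rpl35 was at 0.16 and missed the threshold (SE 0.0708, limma adjusted p = 0.0788), which it passed without male 5 (0.20, limma adjusted p = 0.0450), on CPM (0.23, adjusted p = 0.0231), on quantile-normalized values (0.24, adjusted p = 0.0205) and with the GC and length correction (0.34, adjusted p = 0.00297).

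Of the 10 tested proteins at the tunnel exit, 4 were lower and 0 higher (40% called, against 69.3% of all genes) with a median of -0.15, among them Rpl17 (-0.29), Rpl31 (-0.32) and Rpl39, whereas Rpl35 was above 0 without passing the test. Of 8 proteins at the mRNA channel and decoding site, 4 were lower and 1, Rps2, was higher, 62.5% in all and near the share of all genes. In the stalk, which recruits the elongation factors, Rplp2 was lower (-0.18 on the log2 scale, SE 0.0569, limma adjusted p = 0.0190), while Rplp0 (-0.15) and Rplp1 (-0.08) did not pass the test, at limma adjusted p of 0.0781 and 0.397. The call of Rplp2 was lost without male 6, female 4 or female 5 (limma adjusted p of 0.0833, 0.0555 and 0.0822). On CPM, quantile-normalized and GC- and length-corrected values Rplp2 was at -0.11, -0.08 and -0.02 and was not called (limma adjusted p of 0.157, 0.311 and 0.779). Conversely, without male 4 Rplp0 and Rplp1 were called (limma adjusted p of 0.00152 and 0.0354), and DESeq2 called Rplp0 (adjusted p = 0.0275). Rpl5 and Rpl11, which travel with the 5S rRNA and can bind Mdm2, the ligase that marks p53 for destruction, did not pass it either, at -0.07 (limma adjusted p = 0.351) and -0.14 (limma adjusted p = 0.0773). Rpl11 was called without male 4 (-0.18, limma adjusted p = 0.00436) and with TMM factors computed without the ribosomal protein genes (-0.16, limma adjusted p = 0.0394).

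The calls of 14 of the 80 tested members (17.5%) held in the same direction in all 19 alternative fits, the threshold on fold change aside. Over all genes tested 49.2% did, 25% higher and 24.3% lower. Higher in each were Rps27l and Rps4l. Lower in each were Rpl3, Rpl9, Rpl10, Rpl10a, Rpl17, Rpl22l1, Rpl28, Rpl31, Rpl39, Rps6, Rps14 and Rps27, 12 of the 36. The other 24 lower calls and 3 higher calls were lost in at least 1 alternative.

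Among the l and l1 forms, the ratio to the partner did not overlap between the groups for Rps27l, Rpl22l1 and Rps4l. In their own values 2 forms were apart with female higher and 1 with female lower, of 4 tested, where 74.1% of all genes were apart. Of the 5 forms in the table, 4 were tested, and 2 were higher, 1 was lower and 1 was not called, so that 75% were called beside 69.3% of all genes (34.6% each way). Rps27l, a p53-responsive paralog of Rps27, read 82.0, 86.4 and 92.0 in the male group and 120, 129 and 129 in the female group. The groups were apart, and the difference in limma was 0.53 on the log2 scale (SE 0.0662, adjusted p = 0.000141) where that of Rps27 was -0.39. Per kilobase of coding sequence, Rps27l stood at 25.4% ± 1.27 of Rps27 in the male group and 48.4% ± 2.48 in the female group (SD, n = 3), and every female ratio was above every male one. The lengths, 315 bases for Rps27l and 252 for Rps27, were those of the longest annotated coding sequence. The percents depend on that choice, while the order of the groups does not. Of the transcript of Rps27l 13.7% of the 50-mers are shared with other genes, against 98.6% for Rps27.

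Rpl22l1, the paralog of Rpl22 whose level Rpl22 protein is known to hold down, went the other way. It read 73.7, 75.4 and 86.6 in the male group and 44.6, 49.4 and 43.9 in the female group. This was the lowest fold change of all members, -0.76 (SE 0.0834, limma adjusted p = 6.76e-05), with no overlap of the groups. Rpl22 read 329, 345 and 340 against 300, 315 and 318, a difference that missed the threshold (log2 fold change -0.12, limma adjusted p = 0.0861), and it was called without male 4 (-0.14, limma adjusted p = 0.0169) and with TMM factors computed without the ribosomal protein genes (-0.15, limma adjusted p = 0.0414). The ratio of Rpl22l1 to Rpl22 per kilobase of coding sequence was 24.4% ± 2.05 and 15.5% ± 0.977 (SD, n = 3), again without overlap. In the authors' deposited table the signed fold of Rpl22l1 was -1.71 at a false discovery rate of 0.0415.

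Rps4l, annotated in RefSeq as a transcribed pseudogene related to Rps4x, was weak. Its normalized read count was 3.11, 4.88 and 5.23 in the male group and 10.6, 11.3 and 9.36 in the female group, from 75 to 148 and 197 to 256 reads. The groups were apart, and limma put the difference at 1.10 on the log2 scale (SE 0.167, adjusted p = 0.000455), the highest of all members and understated by the added 1 at this level. Rps4x stood at 877 to 996 in the male group and 826 to 850 in the female group and did not pass the test (log2 fold change -0.16, limma adjusted p = 0.0658), but was called without male 4 (-0.20, limma adjusted p = 0.00211) and in edgeR and DESeq2 (adjusted p of 0.0479 and 0.0382). Rpl7l1, whose symbol follows that of Rpl7 and which takes part in ribosome assembly, read 64.4, 84.4 and 86.9 against 68.6, 72.2 and 66.7. The groups overlapped and it was not called (-0.17 on the log2 scale, SE 0.112, limma adjusted p = 0.204). Without male 4, the lowest male library, it was called at -0.31 (limma adjusted p = 0.000648). Rpl7 was at -0.03 (limma adjusted p = 0.710). Rpl39l, known from the testis, held 0 to 3 reads per library in both groups, too few for a fold.

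Ratios of l forms to their partners were compared for 6 pairs with Rpl36al and Rpl36a included. Rpl36al stood at 39.9% ± 0.480 of Rpl36a in the male group and 46.9% ± 1.52 in the female group (SD, n = 3), without overlap. An exact two-sided permutation test gave p = 0.1 for Rps27l, Rpl22l1, Rpl36al and Rps4l, which is the smallest value that 3 against 3 can give, and p = 0.3 for Rpl7l1 (9.89% ± 1.23 against 8.91% ± 0.475). This test therefore cannot reach a threshold of 0.05 for any of these ratios.

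**Figure D3:**
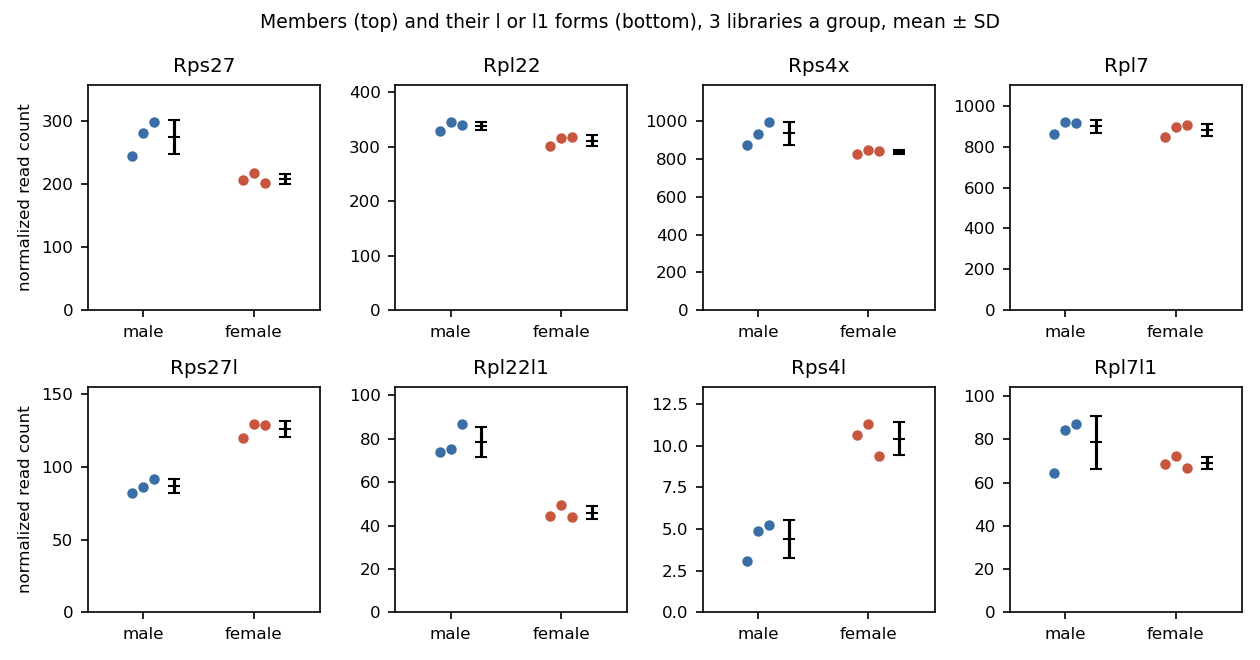
Normalized read counts of Rps27, Rpl22, Rps4x and Rpl7 (top) and of Rps27l, Rpl22l1, Rps4l and Rpl7l1 (bottom) in the 3 libraries of each group, with the mean and SD beside the points and each axis starting at 0. Rps27l and Rps4l are higher in the female group, Rpl22l1 is lower, and the Rpl7l1 groups overlap.

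Levels of most members lay within a narrow range of each other. Per kilobase of coding sequence, the 76 members outside the l and l1 forms had a median of 1174 with quartiles of 949 and 1523. The highest were Rpl41, the shortest ribosomal protein, at 4842, and then Rps24, Rpl23, Rps26 and Rpl27a. The lowest were Rpl30 (40.7), Rpl26 (144) and Rpl34 (155). Without these 3 the range ran from 583 for Rps19 to 4842, a factor of 8.31. Each length is that of the longest annotated coding sequence (636 bases for Rps19), and a shorter one would give a higher level.

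Each of the 3 low rows had a processed copy in the table that read higher than the member itself. Rpl26 read 35.6, 75.8 and 83.1 in the male group and 72.6, 82.4 and 25.7 in the female group, and shares 51.9% of its 50-mers with Gm15772, a processed pseudogene at 540 to 630 in the 6 libraries. The values of Rpl26 varied more between libraries of 1 group than between groups, but the sum with Gm15772 was 636 ± 52.9 and 634 ± 21.7 (SD, n = 3). Rpl30 was at 12.8, 13.3 and 14.8 against 16.6, 15.6 and 11.2, and shares 29.7% of its 50-mers with Gm12191 (337 to 362). Their sum was 365 ± 9.64 and 363 ± 8.05. Rpl34 was at 41.8, 67.0 and 59.6 against 48.4, 59.7 and 51.4, and its copy Rpl34-ps1 (152 to 186) was lower in the female group (log2 fold change -0.23, limma adjusted p = 0.00459), so that the sum was 238 ± 14.4 and 209 ± 2.73. Rpl34 itself was not called (-0.06, limma adjusted p = 0.778) but was without male 4 (-0.25, limma adjusted p = 0.0290). How reads were divided between these rows is not given in the sources used here, so the level of each gene alone is uncertain.

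**Figure D4:**
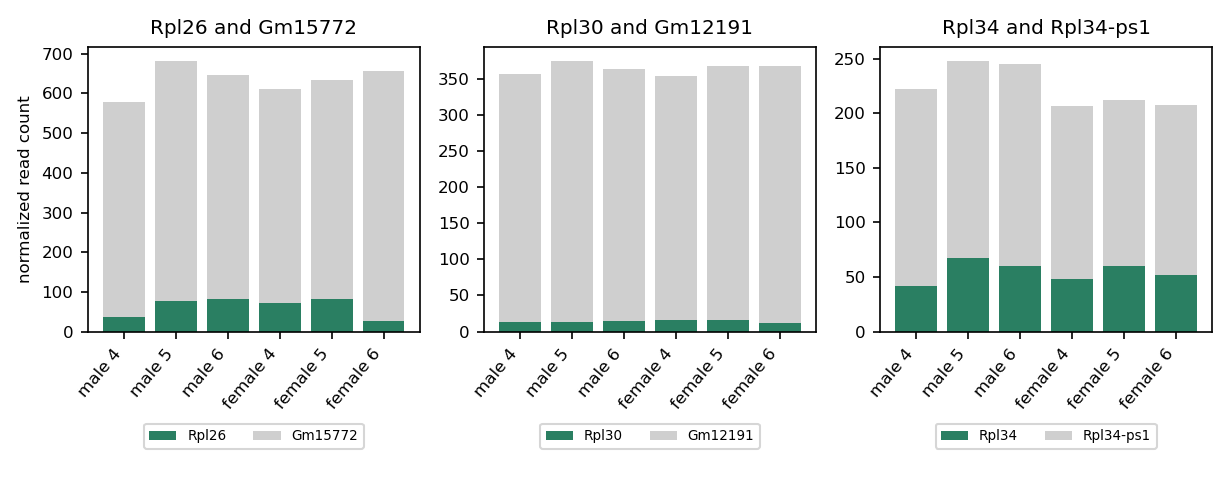
Stacked bars of the normalized read count of Rpl26, Rpl30 and Rpl34 (green) and of a processed copy of each (grey) in the 6 libraries. The copy holds most of each bar, and the sums of the Rpl26 and Rpl30 pairs differ between the groups by less than the SD within a group.

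Members were also counted by shared sequence and by the pyrimidine run at the start, beside 69.3% of all genes called (34.6% each way). Of the 33 with at least 50% of their 50-mers in other genes, 14 were lower and 2 higher (48.5% called) with a median of -0.15. Of the 47 tested with less, 22 were lower and 3 higher (53.2% called) with a median of -0.16. The difference between these sets was not tested. The shared percent is taken over 1 whole transcript per gene, so a long transcript lowers it. That of Rps15a is 5179 bases long and 6.28% shared, though 39 other genes hold part of it. The set with less sharing is therefore not free of reads that could be assigned to copies. The shared percent was 66.8% for Rpl7, 72.2% for Rps4x, 76.8% for Rps2, 84.6% for Rps6, 85.4% for Rps12, 85.5% for Rpl36a, 85.6% for Rpl3 and 93.3% for Rpl9, so their levels, and the ratios of Rpl7l1, Rps4l and Rpl36al to these partners, carry the same kind of uncertainty as that of Rps27. Rpl22l1 shares 56.5% with Gm15421, which read 0.177 to 0.871 in the 6 libraries. The 24 tested members with a run had a median log2 fold change of -0.13, with 2 higher and 11 lower, and the 35 without one had a median of -0.16, with 2 higher and 15 lower.

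Some ribosomal proteins whose symbols lie outside the rule were also read. Fau, whose product is cut to give a 40S protein, was lower, at 320, 370 and 362 against 278, 289 and 284 (-0.30 on the log2 scale, SE 0.0685, limma adjusted p = 0.00419). This call was lost on quantile-normalized values (-0.21, limma adjusted p = 0.0788) and with the GC and length correction (-0.10, limma adjusted p = 0.114). Rps3a1 and Rpl36al were at 0.02 and 0.10 and were not called, at limma adjusted p of 0.753 and 0.199, though Rpl36al was with the GC and length correction (0.20, limma adjusted p = 0.0175).

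Other genes of the translation apparatus spread more widely than the ribosomal proteins. Mitochondrial ribosomal proteins, which build the ribosome of the organelle, were lower in 12 and higher in 20 of 77 tested genes, with a median of 0.01. These calls made up 41.6% of the list, against 69.3% of all genes (34.6% each way). Among them Mrpl41 was at 0.86 and Mrps18b at 0.79, while Mrps16 was at -0.83. Of 25 tested translation factors and other TOP mRNAs, 8 were lower and 7 higher (60% called), with a median of -0.05. Tpt1, whose mRNA carries a TOP motif, was the lowest (-0.43, limma adjusted p = 0.00312), and Nap1l1 (1.01) and Eif3a (0.78) were the highest. Of 80 tested genes for rRNA transcription, rRNA processing and ribosome assembly, 41 were higher and 8 lower (61.25% called) with a median of 0.32, led by Mphosph10 (1.25), Taf1c, a subunit of the RNA polymerase I initiation factor (1.03), and Utp20 (1.02). The lowest called were Taf1d (-0.74) and Taf1b (-0.49), of the same initiation factor, and Nol6 (-0.42). The call of Nol6 was lost with the GC and length correction (-0.15, limma adjusted p = 0.101). These lists were drawn up with earlier results of these data known, and their counts were not tested against those of the ribosomal proteins.

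**Figure D5:**
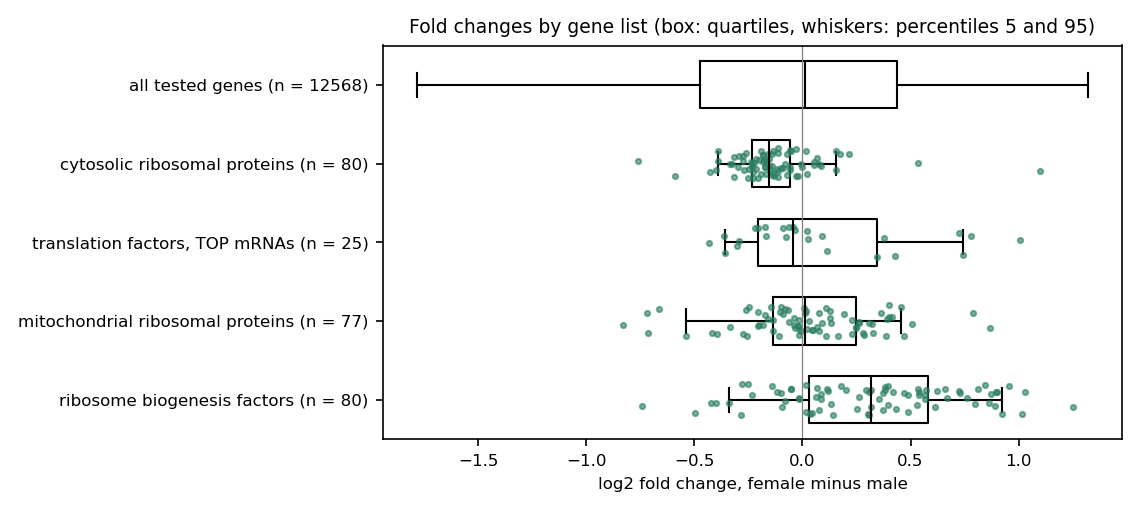
Log2 fold changes (female minus male) of all 12568 genes tested and of 4 gene lists. Boxes give quartiles and median, whiskers percentiles 5 and 95, and points single genes; the ribosomal protein box is the narrowest and centres on -0.15, and that of the ribosome biogenesis factors centres on 0.32.

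Of 20 tested genes in a list of regulators of TOP mRNAs, of mTOR and of ribosomal protein gene transcription, 10 were higher and 2 lower, 60% in all beside 69.3% of all genes. Myc, a transcription factor that raises ribosomal protein genes, read 81.5, 35.5 and 30.6 in the male group and 165, 152 and 172 in the female group (1.84 on the log2 scale, SE 0.307, limma adjusted p = 0.000771). Ddit4, an inhibitor of mTOR complex 1 induced by hypoxia, read 788, 1288 and 1436 against 78.5, 79.7 and 78.6 (-3.83 on the log2 scale, SE 0.192, limma adjusted p = 7.81e-07). Both sets of values were without overlap, and male 4 was the library nearest to the female group for each. Larp1 was higher (0.33, limma adjusted p = 0.00133) and Mtor was too (0.23, limma adjusted p = 0.00788), while Eif4ebp1 did not pass the test (-0.00, limma adjusted p = 0.958). Its paralog Eif4ebp2 was higher (1.27, limma adjusted p = 1.59e-05) and Eif4e was lower (-0.44, limma adjusted p = 0.000981). The kinase genes whose symbols begin with Rps6k are not ribosomal proteins and were left out by the rule. Of 8 tested, 5 were higher and 1, Rps6ka1 (-0.96), was lower, 75% in all and near the 69.3% of all genes (34.6% each way).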

How the data were processed

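Poly(A) RNA was sequenced in 6 libraries; per the labels' protocols, RNA was taken with Trizol and a column kit and libraries were built with Kapa HyperPrep. The submitters' processing notes name Bowtie2, RSEM, edgeR and the build mm39, without versions or roles. The signal that the authors deposited is a normalized read count per gene and library. In each column 100% of values were whole multiples (tolerance 0.01) of the smallest value above 0, which gave back the reads. The authors' signed fold is a deposited score, and their p-value and false discovery rate columns are named so per the file headers. The number of per-library columns that matched no sample was 0.

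limma 3.58.1 (R 4.3.3, eBayes with trend) was run on log2(value + 1) over genes with at least 1 in at least 3 libraries, with Benjamini-Hochberg adjustment over all 12568 tested and a threshold of 0.05. The log2 values were computed from the deposited signal. The design planned edgeR for counts; as the table holds normalized values, edgeR 4.0.16 on the recovered reads was an alternative and called 8975 of 13199 genes. DESeq2 1.42.0, voom, other scalings, a block, other filters and each library left out were further alternatives. The fit was also run on simulated data that held no outlying library, which does not bear on the calls reported here.

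The rule for named genes took the l and l1 forms and their partners, Rps4x, Rpsa, the stalk, Rpl5 and Rpl11, the 6 highest and 6 lowest fold changes, the 5 highest and lowest levels per kilobase, and the 3 highest and lowest called genes of each list. Not all of those from the lists are printed above. Members and lists were chosen with earlier results of these data known. The members called in every alternative, Rps19, Rps15a, Rpl8, Rpl29, the processed copies, Xist, the Y-linked genes and Pecam1 were named after their values were seen. A result on 1 other gene is not reported here. Coding lengths and 50-mers came from GENCODE M21 (GRCm38), which held 80 of the 81 members as coding genes, and promoters from RefSeq (GRCm38.p6). For each coding gene the transcript with the longest coding sequence was used. These builds differ from the authors', so no coordinate of theirs is used.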

Additional observations from a re-analysis of the deposited data

How the results depend on the processing

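On the deposited scale 41 members were called, 5 higher and 36 lower. CPM values gave 23 (8 higher, 15 lower), quantile normalization 19 (13 lower), the GC and length correction 13 higher and 20 lower, and a log2 fold change of at least 0.5 left 4 (2 higher, 2 lower). Members with under 50% shared 50-mers gave 25 calls (3 higher, 22 lower), fewer because fewer were counted. These were 53.2% of the 47 tested, beside 69.3% of all genes (34.6% each way). The higher calls were 3 with RLE factors, TMM recomputed, TMM without ribosomal protein genes, voom and edgeR, where 69.2%, 69.2%, 69.1%, 68.2% and 68.0% of all genes were called in either direction. Leaving out 1 library gave 21 to 64 calls, 2 to 5 of them higher and 18 to 59 lower. The 64 were without male 4, where 74.8% of all genes were called, and the other 5 libraries gave 21 to 26, with 60.3% to 63.4% of all genes called. The members' median of -0.15 became -0.071 with the GC and length correction, and the summed level of the female group, 91.5% of the male one, became 96.3% on CPM. The causes were not tested. CPM, the recomputed TMM factors, the GC and length correction and the split by shared 50-mers were chosen after seeing the data.

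The labels give both groups replicate numbers 4, 5 and 6, but same-numbered libraries did not deviate together (correlations -0.09, -0.03 and -0.17). With the replicate block, 29 members were called, 2 higher and 27 lower, all among the 41, where 66.2% of all genes were called. It ended the other 12 calls, among them those of Rps2, Rpl14 and Rps12 (limma adjusted p of 0.0545, 0.0754 and 0.0961).

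Of 1800 fold changes over 90 named genes and their alternatives, 1520 kept direction and call, 30 gained the call, 224 lost it and 26 changed sign. Each sign change was of a gene that did not pass the test. Outside the 90, Rpl8 (-0.0082) and Rpl29 (-0.022) were not called but changed sign with the GC and length correction. They were then called higher, at 0.22 and 0.14 (limma adjusted p of 0.00627 and 0.0468). On CPM the log2 fold change was 0.071 for Eif4ebp1, 0.048 for Rpl7, 0.019 for Rpl34 and 0.0062 for Rpl5. On quantile-normalized values it was 0.073 for Eif4ebp1, 0.038 for Rpl7 and 0.024 for Rplp1. With the GC and length correction it was 0.069 for Eif4ebp1, 0.053 for Rpl7, 0.040 for Rpl34 and 0.017 for Rplp1. TMM without ribosomal protein genes put Rps26 at -0.0045 and Rps3a1 at -0.0048. Leaving out 1 library moved Eif4ebp1 between -0.039 and 0.017, Rpl26 between -0.55 and 0.34, Rpl30 between -0.036 and 0.23, Rpl34 between -0.25 and 0.083, Rpl7 between -0.058 and 0.0015 and Rps26 between -0.026 and 0.065.

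At 22303270 to 31189363 reads per library, depth limits Rpl39l (0 to 3 reads) and to a lesser degree Rps4l. The spread between 3 libraries limits the others, and differences under 0.15 on the log2 scale did not pass the test.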
